A study of Mus musculus with 22 samples.

Results

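Tnf, Osm, Csf1, Il23a and Hbegf encode secreted or shed signalling proteins, and their transcripts were followed in single cells sorted as neutrophils from the terminal ileum of mice after allogeneic stem cell transplantation. These 5 genes were looked up by symbol among 23091 genes measured in any of 22 libraries. Tnf, Osm, Csf1 and Il23a had a row in all 22 tables, while Hbegf had one in 20 and was taken as 0 elsewhere. A cell was kept when its transcripts, after rounding, came to at least 500, which left 1383 cells. The quantities described are the share of kept cells holding each transcript, the summed level per library, and how often several of the transcripts were found in the same cell.

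The group labelled aGVHD, for acute graft-versus-host disease, had 12 libraries and 1025 kept cells. Its irradiated BALB/c recipients aged 7 to 9 weeks received 5000000 bone marrow cells together with 400000 T cells from C57BL/6 donors. In the control group (10 libraries, 358 kept cells), recipients of the same strain and age had received the bone marrow cells without T cells. Both groups had total body irradiation in 2 doses of 5 Gy, and both were sampled on day 21, so the controls are transplanted and irradiated animals, not untouched ones. Cells in both groups were sorted as CD45+H2kb+CD11b+Ly6G+, that is, donor-derived leukocytes carrying neutrophil surface markers. The C57BL/6N mice were females of 7 to 10 weeks. The labels do not say which mouse each library came from, so several libraries may share an animal and the p-values measure the spread between libraries. The library titles fall into a set named by dates (8 aGVHD, 6 control) and a set named G1 (4 and 4).

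Tumour necrosis factor is made as a membrane protein, is released by the protease Adam17, and signals through Tnfrsf1a and Tnfrsf1b, largely by way of NF-kB. Oncostatin M (Osm) is a member of the interleukin 6 family that acts on stromal and epithelial cells through Osmr and Il6st and the transcription factor Stat3. Csf1 keeps macrophages alive through its receptor Csf1r, the Il23a product forms interleukin 23 only with the product of Il12b, and Hbegf is a shed ligand of Egfr and Erbb4. In intestinal aGVHD, donor T cells attack the recipient's gut, and tumour necrosis factor is a long-known mediator of the damage. Most of these messages are short-lived and are cleared through decay factors such as Zfp36.

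The promoters of Tnf and Csf1 are shown, and genes of the NF-kB pathway are followed beside these transcripts. The promoter set used held none for Osm or Il23a, and that of Hbegf is not reported here. The sequences are RefSeq's, on build GRCm38.p6, and the deposited tables name no build. Each is 300 bases on the minus strand, printed 5′ to 3′ in the gene's direction, at chr17:35201958-35202257 for Tnf and chr3:107760420-107760719 for Csf1. Capitals mark matches on either strand to the kB motif, here GGG and CC with any 5 bases between them, and overlapping matches run together.
Tnf: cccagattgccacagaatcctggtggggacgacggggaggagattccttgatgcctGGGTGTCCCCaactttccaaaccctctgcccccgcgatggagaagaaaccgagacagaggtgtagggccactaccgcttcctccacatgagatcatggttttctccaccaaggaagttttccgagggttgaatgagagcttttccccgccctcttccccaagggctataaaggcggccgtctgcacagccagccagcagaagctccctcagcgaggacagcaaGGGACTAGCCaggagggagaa
Csf1: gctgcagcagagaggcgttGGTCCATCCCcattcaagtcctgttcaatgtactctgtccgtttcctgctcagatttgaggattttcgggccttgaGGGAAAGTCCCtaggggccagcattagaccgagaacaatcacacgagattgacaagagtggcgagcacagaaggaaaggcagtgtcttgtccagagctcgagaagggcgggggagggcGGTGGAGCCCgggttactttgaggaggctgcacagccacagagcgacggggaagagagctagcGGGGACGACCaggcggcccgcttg
The Tnf window held a match at 194 bases before its start site, which reads GGGTGTCCCC on the printed strand and at which the motif matches on both strands, and another, GGGACTAGCC, at base 29 after it. The Csf1 window held matches starting 231, 155, 154 and 37 bases before the start site and 26 bases after it, and those at 155 and 154 overlap. The same motif occurred in 50.8% of 32851 RefSeq windows of this length, so a match of this kind is common. The AP-1 motif TGANTCA (7.81% of the windows) and the STAT motif TTCNNNGAA (8.3%), searched on both strands, were in neither window.

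Libraries held 74 to 95 kept cells in aGVHD and 11 to 60 in control. Their summed transcripts ran between 192625 and 347985 in aGVHD libraries and between 29334 and 223216 in control libraries, and the median per cell between 1557 and 3115 in aGVHD and between 1368 and 4281 in control. Between 31.9% and 78.1% of the transcripts in aGVHD libraries, and between 34.9% and 77.6% in control libraries, belonged to unnamed gene models, chiefly Gm10800. Because detection grows with depth, each kept cell was reduced at random to 500 transcripts before cells were called positive. Of the sorted cells, 456 fell into clusters named neutrophil-like from their markers, 92 into a macrophage- or monocyte-like cluster, 43 into B- or plasma-cell-like clusters and 27 into an epithelial-like cluster, and 765 stayed unnamed. Unnamed cluster 0 had 9 of 34 neutrophil markers raised, but its 10 leading genes held the eosinophil marker Siglecf and no neutrophil marker. Cluster 6, named neutrophil-like, also had only 9 of 34 raised. Its 10 leading genes held no neutrophil marker either, and none of another type. The neutrophil-like share was 18.2% to 59.8% of cells in aGVHD libraries and 0% to 35.7% in control libraries. The summed level of 34 detected of 36 neutrophil markers had a median of 15760 CPM (transcripts per the library total, scaled to a common size) in aGVHD libraries (7395 to 74890) and 7964 CPM in control libraries (4906 to 15700). The epithelial list, with 16 of 17 markers detected, had a median of 212.5 CPM in aGVHD libraries (10.4 to 6098) and 1027 CPM in control libraries (9.83 to 23880), and that of 18 macrophage and monocyte markers, all detected, was 1372 (746 to 5066) and 1630 (226 to 7363). The median level of 10 B- and plasma-cell markers was 66.9 CPM in aGVHD libraries (6.06 to 47520) and 561 CPM in control libraries (83.6 to 37780), that of 12 detected of 14 T- and NK-cell markers 26.5 (3.35 to 379) and 120.6 (0 to 595), and that of 12 dendritic-cell markers 206.7 (127 to 286) and 505.5 (154 to 1062). The eosinophil and mast-cell list (7 of 9 detected) had 47.7 (13.4 to 86.2) and 27.9 (0 to 102), and the stromal and endothelial list (8 of 8) 96.4 (42.4 to 254) and 77.1 (0 to 141). These differences in makeup ran alongside the group comparison, and their part in it was not tested.

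The level of Tnf was higher in aGVHD. Over all kept cells of a library, the scaled level of Tnf had a lowest value of 185, a median of 398.6 and a highest value of 956 CPM in the 12 aGVHD libraries, and 38.9, 196 and 330 CPM in the 10 control libraries. The groups overlapped, with 6 aGVHD libraries above every control library and 4 control libraries below every aGVHD library. The mean level was 458 ± 262 CPM in aGVHD and 193 ± 97.7 in control (SD, n = 12 and 10), a log2 fold change of 1.18 with a standard error of 0.345 and an adjusted p of 0.0341 (limma with Benjamini-Hochberg adjustment over 1748 genes). In this comparison 152 of the 1748 genes, or 8.7%, passed the threshold of 0.05, with 74 higher and 78 lower in aGVHD, and Tnf was 1 of the 4 members tested that did. In a sum over a library, more positive cells and more transcript per cell cannot be told apart.

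The call for Tnf rested on few libraries. It was lost when control replicate 1, 2 or 9 or aGVHD replicate 2, 3 or 4 was left out (adjusted p of 0.0998, 0.0539, 0.0526, 0.0548, 0.0544 and 0.0556), with log2 fold changes of 0.93 to 1.15. It was also lost within the dated set (1.05, adjusted p = 0.134) and within the G1 set (1.27, adjusted p = 0.422), and when each library was scaled to its total (1.26, adjusted p = 0.141), all by limma. Tnf was higher in aGVHD in all 30 alternative fits.

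**Figure D1:**
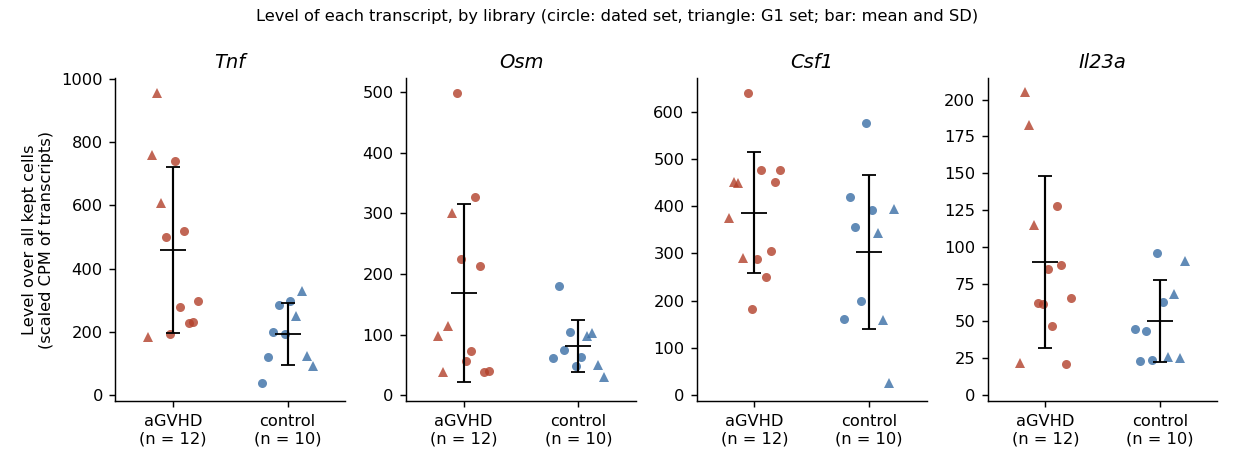
Scaled level in CPM (y axis) of Tnf, Osm, Csf1 and Il23a in each aGVHD and control library, with circles for the dated set, triangles for the G1 set, and a bar for the mean and SD. For Tnf the aGVHD libraries reach from 185 to 956 and the control libraries from 38.9 to 330. The other 3 transcripts overlap widely between groups.

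Csf1, Il23a and Osm did not pass the threshold. Csf1 had a lowest value of 182, a median of 412 and a highest value of 639 CPM in aGVHD libraries, and 24.8, 349 and 577 in control libraries. The groups overlapped over nearly their whole range, and the log2 fold change was 0.55 (SE 0.293, limma adjusted p = 0.250). Il23a had 21.3, 75.4 and 205 CPM in aGVHD libraries, and 23.1, 43.8 and 96.1 in control libraries. Its log2 fold change was 0.80 (SE 0.392, limma adjusted p = 0.211). The 4 Il23a values above 100 CPM, in aGVHD replicates 2, 3, 4 and 9, lay above every control library, and the other libraries overlapped. Osm had 37.9, 105 and 499 CPM in aGVHD libraries, and 30.2, 68.6 and 181 in control libraries. Here 5 aGVHD libraries lay above every control library while others lay among them, and the log2 fold change was 0.27 (SE 0.449, limma adjusted p = 0.773). Hbegf was below the filter on low values and was not tested. Whether the effect differed between the 2 title sets was tested as an interaction. It passed for 0 of 1748 genes by limma, and the 4 tested members had adjusted p-values of 0.896 to 0.985 in that test.

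As a share of cells, Tnf was found in 167 of 1025 aGVHD cells and 33 of 358 control cells at 500 transcripts per cell. By library the share had a lowest value of 5.81%, a median of 11.8% and a highest value of 32.2% in aGVHD, and 0%, 7.5% and 20% in control. The 4 highest libraries, aGVHD replicates 7, 3, 4 and 2, had 32.2%, 28.3%, 24.7% and 22.7%, and the other aGVHD libraries lay within the control range. The mean was 16.1% ± 8.60 in aGVHD and 8.76% ± 7.17 in control (SD, n = 12 and 10), a difference of 7.31 percentage points with p = 0.0394 in a two-sided permutation test of group labels within title sets. After Benjamini-Hochberg adjustment over the 2912 genes tested the p was 0.363, so the share did not pass. This test called 0% of the genes (0 of 2912, against 379 at an unadjusted p under 0.05), while limma on the summed levels called 152.

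**Figure D2:**
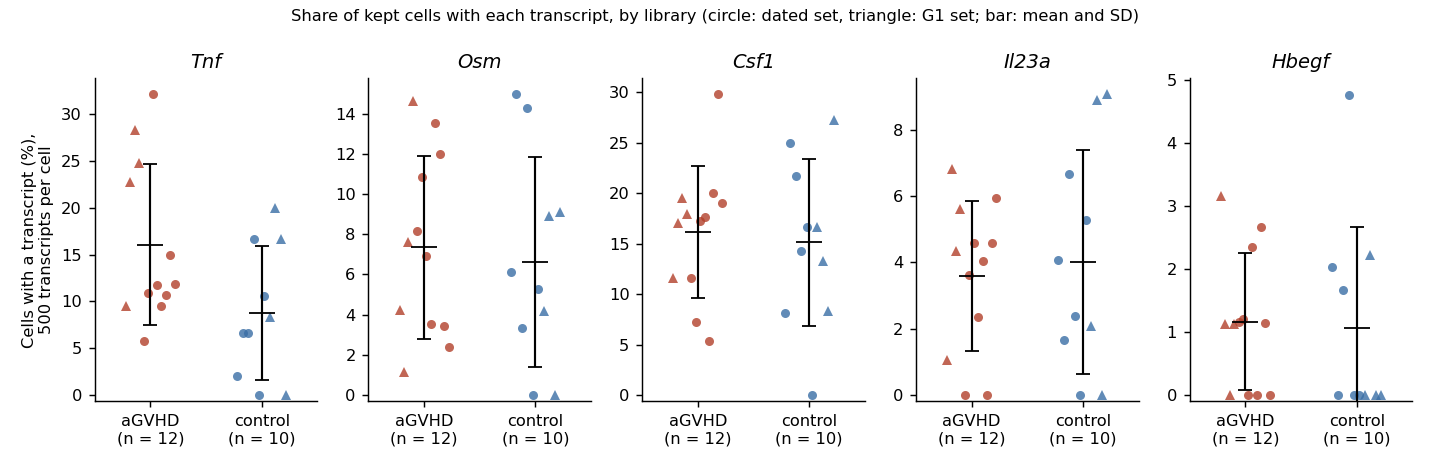
Percentage of kept cells (y axis) holding each transcript at 500 transcripts per cell, in each aGVHD and control library, with circles for the dated set, triangles for the G1 set, and a bar for the mean and SD. The Tnf panel shows 4 aGVHD libraries between 22.7% and 32.2%, above the highest control library at 20%.

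The shares of cells with Osm, Csf1, Il23a and Hbegf differed by less than the spread between libraries. Osm was found in 7.36% ± 4.56 of aGVHD cells and 6.62% ± 5.24 of control cells (permutation p = 0.728, adjusted p = 0.923). Csf1 was found in 16.2% ± 6.52 of aGVHD cells and 15.1% ± 8.30 of control cells (permutation p = 0.747, adjusted p = 0.930). Il23a was found in 3.58% ± 2.27 of aGVHD cells and 4.01% ± 3.37 of control cells (permutation p = 0.722, adjusted p = 0.921). Hbegf was found in only 17 cells, in 1.16% ± 1.09 of aGVHD cells and 1.07% ± 1.60 of control cells, and was under the minimum of 20 cells set for the test. These are means over libraries with their SD, n = 12 and 10.

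Most positive cells held few copies. Without the reduction in depth, Tnf was seen in 376 aGVHD cells and 96 control cells, and 44.3% of all Tnf-positive cells had a single transcript. The highest Tnf count in a cell was 81, in a macrophage- or monocyte-like cell of aGVHD replicate 3. Single-transcript cells made up 53.0% of Osm-positive, 40.0% of Csf1-positive, 54.3% of Il23a-positive and 60.6% of Hbegf-positive cells.

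Among neutrophil-like cells alone, the direction for Tnf was the same. The mean share of cells with Tnf was 24.0% ± 14.2 over 12 aGVHD libraries and 7.24% ± 9.30 over the 9 control libraries that had such cells, with p = 0.00549 in an exact permutation test and an adjusted p of 0.142. Several control shares rest on very few cells, though each library counted equally. Control replicates 5 and 10 had 1 neutrophil-like cell each, and replicates 1, 6 and 8 had 5, 4 and 8. The aGVHD libraries had 16 to 52. In the summed levels of libraries with at least 10 such cells, Tnf averaged 807 ± 814 CPM in aGVHD and 285 ± 150 in control (n = 12 and 4), with a log2 fold change of 1.13 and an SE of 0.609 (adjusted p = 0.501 by limma). The aGVHD libraries ran from 265 to 3212 CPM, the highest being replicate 2, and the 4 control libraries had 402.5, 88.1, 400.8 and 249 CPM. Csf1 averaged 670 ± 276 CPM in aGVHD and 703 ± 133 in control, with a log2 fold change of -0.24 and an SE of 0.344 (adjusted p = 0.793 by limma). In this comparison limma called 0% of genes, 0 of 448 with 47 at an unadjusted p under 0.05, and Osm, Il23a and Hbegf were below its filter.

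The transcripts differed in where among the clusters they were found, which is given as a description because the clusters were made from the same cells, though without these 5 genes. Tnf was most frequent in neutrophil-like cluster 6, led by Cxcl10, Gbp5 and Spp1, where 36.1% of 97 cells held it at 500 transcripts per cell (exact 95% interval 26.6% to 46.5%, which like all such intervals here covers counting error only). In neutrophil-like cluster 4 and unnamed cluster 0, led among others by Siglecf, Gpr84 and Ccl3, 23.8% of cells did. Among the 15 cells of B-cell-like cluster 14, 13 of them from control libraries, 26.7% did. In the granule-gene cluster 9 (Ngp, Camp and Ltf), the Tnf share was 14.9%. Among 27 epithelial-like cells it was 0 (exact 95% upper limit 12.8%). Before the reduction in depth 25.9% of those epithelial-like cells had a Tnf transcript at a median of 13908 transcripts a cell, against 67.0% in cluster 6 at a median of 2455. Whether the Tnf transcripts in the epithelial-like cells were their own or came from free RNA of other cells was not tested. With depths so unlike, their share at full depth is not a measured background.

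Csf1 was found in 30.9% of cluster 6 and 30.7% of cluster 0, in 26.4% of unnamed cluster 1, in 26.2% of the interferon-gene cluster 3 (led by Rsad2, Ifit3 and Isg15) and in 17.2% of cluster 4, but in only 1 of 74 cells of the granule-gene cluster 9 (1.35%, interval 0.0342% to 7.30%). In the macrophage- or monocyte-like cluster 7 it was in 4.35% of 92 cells. Osm was in 17.6% of cluster 9 (interval 9.70% to 28.2%), 13.04% of cluster 7, 12.3% of cluster 3 and 6.19% of cluster 6. So the granule-gene cluster was among the highest for Osm and among the lowest for Csf1. All but 2 of the 74 cells in cluster 9 came from aGVHD libraries.

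Il23a was found in 8.47% of cluster 0, 7.22% of cluster 6 and 6.15% of cluster 3, and in 1 cell each of clusters 7 and 9. Clusters 0 and 6 held 28.6% and 19.6% of all Il23a transcripts, while cluster 7 held 14.7%, and 1 of its cells alone had 20 of the 388 transcripts. Il12b, whose product is needed beside that of Il23a, was found in 7 cells, 4 of them in cluster 7 and none of the 456 neutrophil-like cells (exact 95% upper limit 0.806%). No cell had both, where 0.287 would be expected from the shares within libraries. At full depth Il12b was found in 21 cells, 7 of them in cluster 7 and 5 of them neutrophil-like. There 3 cells had both transcripts, where 2.31 would be expected, with 1 of them neutrophil-like and 0 in cluster 7. Hbegf was in 3 of 27 epithelial-like cells at 500 transcripts and in 77.8% of them at full depth, and these 27 cells held 35.7% of its transcripts.

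**Figure D3:**
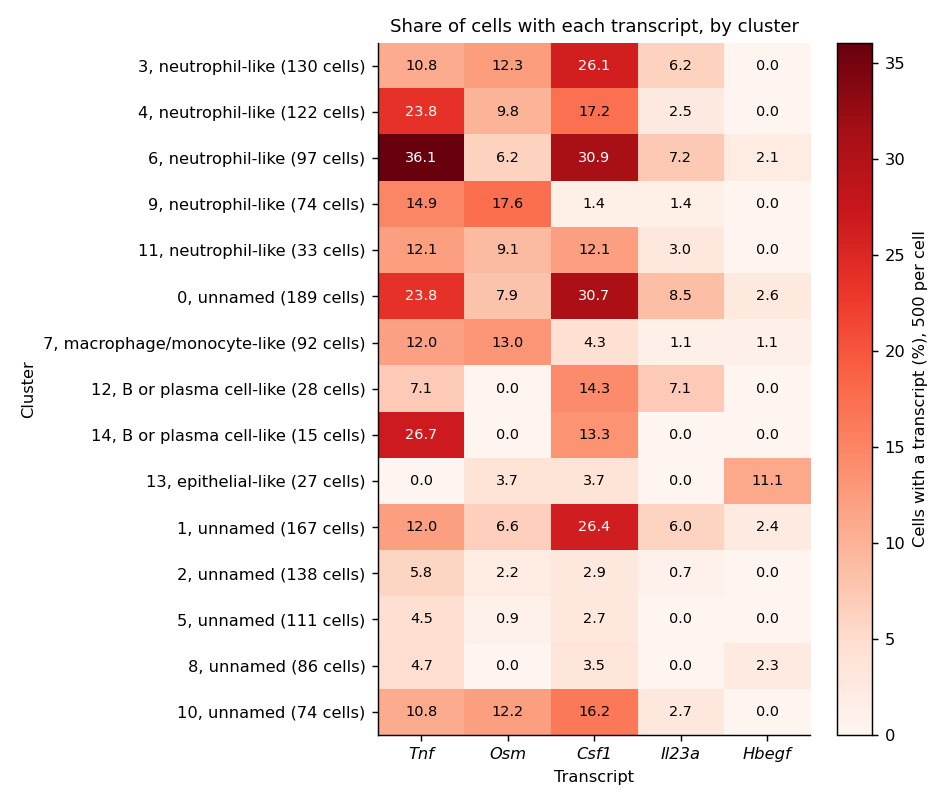
Percentage of cells holding each transcript at 500 transcripts per cell (colour and printed value), with clusters in rows and transcripts in columns. Tnf is highest in cluster 6, at 36.1%, and Csf1 in clusters 6 and 0, while Osm is highest in cluster 9, where Csf1 is at 1.35%.

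Within clusters 6, 4, 0 and 3 the share of cells with Tnf had a higher value in aGVHD than in control, over few control cells, and no test over libraries was made. The direction was the same in macrophage- or monocyte-like cluster 7 (13.8% of aGVHD cells and 8.82% of control cells). It was also the same in unnamed clusters 1 (13.1% and 8.89%), 2 (7.14% and 2.5%), 5 (5.4% and 0%) and 8 (4.7% and 4.5%). In cluster 6 the share was 42.7% of 75 aGVHD cells (interval 31.3% to 54.6%) and 13.6% of 22 control cells (2.91% to 34.9%). In cluster 4 it was 27.2% of 103 aGVHD cells (18.9% to 36.8%) and 5.26% of 19 control cells (0.133% to 26.0%). In cluster 0 it was 25.9% of aGVHD cells and 18% of control cells, and in cluster 3 it was 11.8% and 8.11%. The lower value was in aGVHD in unnamed cluster 10, with Tnf in 8.70% of 46 aGVHD cells and 14.3% of 28 control cells, and in cluster 14, with 0 of 2 aGVHD cells and 30.8% of 13 control cells. Csf1 in cluster 6 had 36.0% in aGVHD cells and 13.6% in control cells, but in cluster 3 it had 23.7% in aGVHD cells and 32.4% in control cells.

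The transcripts were mostly seen singly. At 500 transcripts per cell, 476 cells held at least 1 of the 5, and 368 of these (77.3%) held exactly 1, 96 held 2 and 12 held 3. At full depth 921 cells held at least 1 and 49.1% of these held 2 or more, so how exclusive the transcripts appeared depended on depth. The number with both of a pair was therefore set beside the number expected if the transcripts were spread independently within each library. Tnf and Il23a occurred together in 21 cells where 8.68 would be expected, so that 40.4% of Il23a-positive cells and 10.5% of Tnf-positive cells held both. At 500 transcripts the pair was above its expected number in 11 libraries and below it in 6. Within neutrophil-like cells alone it was in 7 cells with 5.03 expected, above in 6 libraries and below in 5. At full depth, where depth differs between cells, the pair was in 105 of all kept cells with 58.7 expected, and it was above its expected number in 20 of 22 libraries. Tnf and Csf1 occurred together in 48 cells (34.1 expected), and Csf1 and Il23a in 14 (8.79 expected).

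The numbers for the pairs with Osm depended on depth and on how cells were reduced. At 500 transcripts Osm occurred with Tnf in 15 cells (14.9 expected), with Csf1 in 21 (15.9 expected) and with Il23a in 2 (3.57 expected). The surplus with Csf1 lay in control cells, with 11 aGVHD cells (10.99 expected) and 10 control cells (4.93 expected) holding both. By library, Osm with Csf1 was above its expected number in 9 libraries and below it in 10. At full depth Osm and Tnf were together in 114 cells (91.8 expected, above in 16 of 22 libraries), a ratio of 1.24 that equals the one for Tnf and Csf1 (248 cells, 200.2 expected). Osm and Csf1 were then together in 110 cells (104.6 expected) and Osm and Il23a in 34 (28.5 expected). Within neutrophil-like cells alone Osm was below its expected number with each of the 3, at 7 cells with Tnf (9.97 expected), 6 with Csf1 (9.65 expected) and 0 with Il23a (2.11 expected). There Tnf and Csf1 were together in 20 cells (18.03 expected), close to independence. The counts are small and no test was made. When cells were reduced to 250 transcripts of named genes instead, Osm and Csf1 were below their expected number, in 10 cells (14.3 expected). Osm and Tnf were then together in 13 cells (10.5 expected) and Osm and Il23a in 5 (2.67 expected). Tnf and Il23a were together in 19 (6.55 expected).

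**Figure D4:**
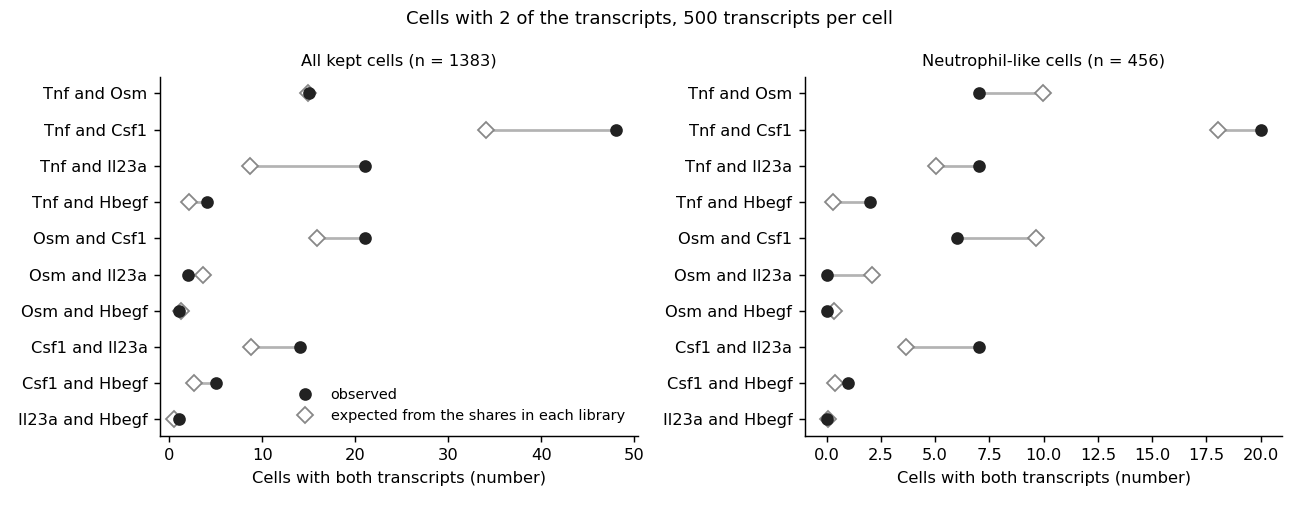
Number of cells (x axis) holding both transcripts of each pair (filled circles) beside the number expected within libraries (open diamonds), in all kept cells and in neutrophil-like cells, at 500 transcripts per cell. Tnf with Il23a (21 against 8.68) and Tnf with Csf1 (48 against 34.1) lie to the right of their expected numbers in all kept cells, while in neutrophil-like cells the pairs with Osm lie to the left.

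Neutrophil-like cells with a Tnf transcript were compared with those without one inside the same library, in 8 libraries, all aGVHD, with 74 positive and 216 negative cells. Of 71 genes tested, 12 (16.9%) passed. The 3 genes that were higher in the Tnf-positive cells were Nfkbia, which encodes the inhibitor of NF-kB and is itself an NF-kB target (log2 fold change 1.02, SE 0.185), the neutrophil-attracting chemokine Cxcl2 (0.71, SE 0.168) and Zfp36, which encodes a factor that destabilises Tnf mRNA (0.68, SE 0.245). Their limma adjusted p-values were 5.75e-05, 0.00178 and 0.0484, and each was higher in 8 of 8 libraries. Zfp36 lost its call in 4 of 5 other settings, with adjusted p-values of 0.0535 at 1000 transcripts, 0.130 with at least 3 cells of each status, 0.0621 over all kept cells and 0.187 at 250 named transcripts, and without aGVHD replicate 2, 7, 8 or 12 (limma adjusted p of 0.0821, 0.238, 0.0530 and 0.0890). Its log2 fold change was 0.49 to 0.92 over these settings and those that leave out 1 library. Cxcl2 lost its call at 250 named transcripts (0.0526), and Nfkbia kept its call in all 13. The positive cells were lower in Retnlg, a marker of mature neutrophils (-1.72), the G-CSF receptor gene Csf3r (-1.11) and the calcium-binding alarmins S100a9 (-1.03) and S100a8 (-0.86). Lrrc58, Actg1, Actb, Gm26870 and Gm10800 were lower too. S100a8, S100a9 and Actb kept their calls in all 13, while Retnlg was at an adjusted p of 0.0845 at 250 named transcripts (-0.82 by limma) and Csf3r at 0.132 at 1000 (-0.39). Lrrc58 and Actg1 lost theirs in 2 and 1 of the 5 other settings, and Gm10800 and Gm26870 in 5 and 4 of the 8 fits without 1 library. Nfkbia averaged 8985 ± 2990 CPM in positive and 4158 ± 1415 in negative cells, and Retnlg 2065 ± 2989 and 5935 ± 5656 (SD over 8 libraries).

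Csf1-positive neutrophil-like cells (72 cells, against 210 negative, in 9 libraries) differed in 8 of 57 genes tested (14%). They were higher in Il1rn, which encodes the interleukin 1 receptor antagonist (1.17, SE 0.266), and in the ferritin heavy chain gene Fth1 (0.53, SE 0.166), each in 8 of 9 libraries, with limma adjusted p-values of 0.000194 and 0.0133. Fth1 lost its call at 1000 transcripts (0.26, adjusted p = 0.258), over all kept cells (0.20, adjusted p = 0.470) and without aGVHD replicate 1, 4 or 7, whereas Il1rn, S100a6, S100a8 and S100a9 kept theirs in every setting in which they were tested. They were lower in S100a6 (-1.43), S100a8 (-1.16) and S100a9 (-0.96), and in Actb, Gm26870 and Gm10800, each of which lost its call in 2 or 3 of the 5 other settings and in 1 to 6 of the 9 without 1 library. Lower S100a8, S100a9, Actb, Gm10800 and Gm26870 were shared by the Tnf and Csf1 comparisons, that is 5 of 12 and 5 of 8 called genes. In both, unnamed models were lower in the positive cells, and their part in the other differences was not tested. Cells were called positive in a draw of fixed size from all genes, which holds more named transcripts where unnamed models take up less. These comparisons therefore cannot tell lower Gm10800 and Gm26870 apart from the way cells were called positive. Both comparisons also pooled all neutrophil-like clusters of a library, including the granule-gene cluster, where Csf1 was rare. Positive and negative cells may thus differ in cluster makeup, and the part of this in the differences was not tested.

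Osm-positive cells (23, against 114 negative, in 4 libraries) differed in 4 of 62 genes (6.45%), and these were the unnamed models Gm10800, Gm26870, Gm29055 and Gm37954, all lower. Each lost its call in 1 or 2 of 4 other settings. No named gene passed for Osm. Its status was also called in a draw from all genes. The lower unnamed models therefore cannot be told apart from the way cells were called positive. The draw of 250 named transcripts, which leaves unnamed models out, had only 3 libraries for Osm and was not tested. Il23a and Hbegf had too few positive cells in any library for this comparison.

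**Figure D5:**
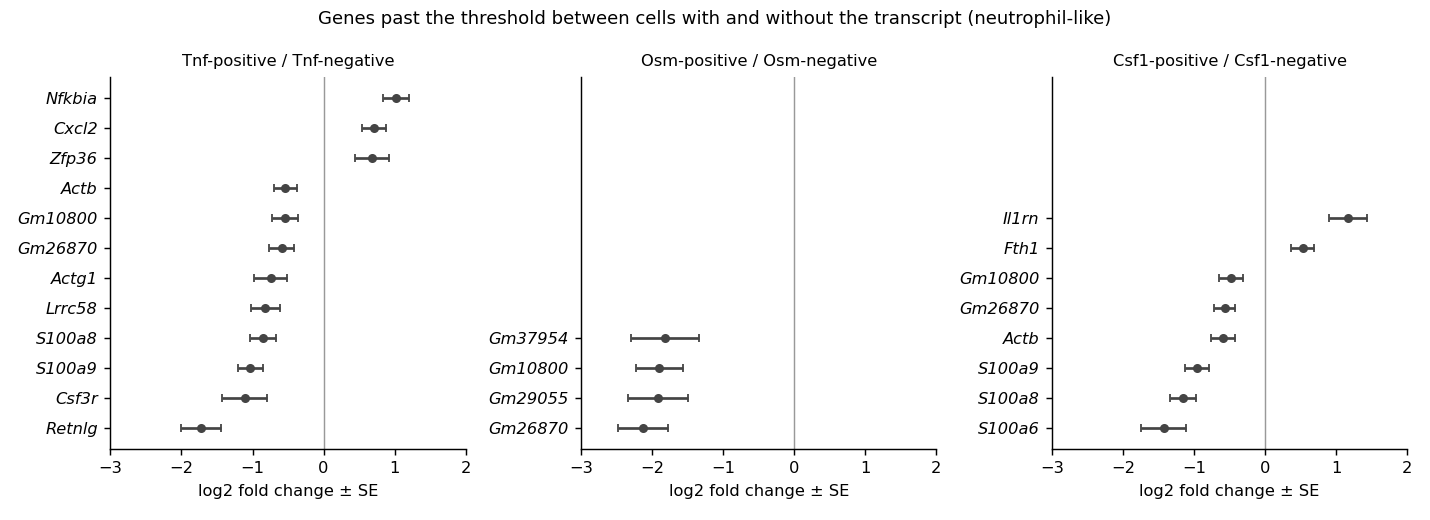
Log2 fold change with its standard error (x axis) of the genes past the threshold between neutrophil-like cells with and without Tnf, Osm or Csf1. Nfkbia, Cxcl2 and Zfp36 lie above 0 in Tnf-positive cells and Il1rn and Fth1 in Csf1-positive cells, while S100a8 and S100a9 lie below 0 in both.

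Across all kept cells at 500 transcripts, each transcript's detection was correlated with that of 2020 genes after centring within the 22 libraries, as a description. The cells share library and depth, and all coefficients were weak. Tnf was most like Nfkbia (r = 0.23), followed by Il1a, Tnfaip3, Clec4e and Marcksl1, and 86.0% of 200 Tnf-positive cells held Nfkbia, against 51.4% of the negative cells. Osm was most like Btg2 (r = 0.20), S100a6, Cebpb, Fos and Pfkfb4. Csf1 was most like Il1rn (r = 0.22), and Ccl3, Ccrl2 and B2m were also among its 5 nearest genes. Il23a was most like Zfr (r = 0.18), Il1a, Irg1, 2810474O19Rik and Nfkbiz, and Hbegf, with 17 cells, like Larp1, Clec2d, Ccl3, Ikbke and Pola2. Il1a was thus among the 5 nearest genes of both Tnf and Il23a, and Ccl3 among those of both Csf1 and Hbegf. None of the 5 nearest to Osm was shared with the other members.

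Transcripts of the receptors were looked for in the same cells. Tnfrsf1a was found in 15.8% and Tnfrsf1b in 19.5% of neutrophil-like cells at 500 transcripts. Csf1r was found in 22.8% of macrophage- or monocyte-like cells and 6.36% of neutrophil-like cells. Osmr was found in 1 cell, Il6st in 3, Egfr in 6, Erbb4 in 1 and Il12rb1 in 0 of 1383. Of 10 receptor genes, 3 were abundant enough to test between groups over all kept cells and none passed. Tnfrsf1b had a log2 fold change by limma of 0.51 (adjusted p = 0.341), Tnfrsf1a of 0.52 (0.111) and Csf1r of 0.23 (0.710).

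Of 105 list entries for other genes of these pathways, receptors included, 58 were tested between aGVHD and control and 4 passed (6.9%, beside 8.7% of all genes tested). Bcl3 and Osmr each stand in 2 of the lists, and neither was tested by limma. Of 10 shedding and processing genes 3 were tested and none passed, with limma log2 fold changes of 0.30 for Cd9, 0.47 for Adam8 and 0.23 for Furin. Of 20 partner and related cytokines 5 were tested and none passed, among them Il1b (-0.01), Il1a (0.47) and Vegfa (-0.66). Of 12 mRNA decay and feedback genes 8 were tested and none passed, with 0.10 for Zfp36, -0.05 for Dusp1 and 0.02 for Tnfaip3. Of 25 NF-kB subunits and targets 21 were tested and 1 was lower, the subunit gene Rel, at 89.3 ± 26.1 CPM in aGVHD and 172 ± 75.8 in control (log2 fold change -0.83, SE 0.234, limma adjusted p = 0.0293). Of 16 AP-1 and immediate early genes 15 were tested and 1 was higher, Ier3, a stress-induced survival gene, at 475 ± 255 CPM in aGVHD and 188 ± 97.5 in control (1.23, SE 0.335, limma adjusted p = 0.0268). Of 12 STAT signalling genes 3 were tested and 2 were higher, Stat3 (0.66, SE 0.203, limma adjusted p = 0.0401) and the survival gene Mcl1 (0.61, SE 0.152, limma adjusted p = 0.0171). The median log2 fold change was 0.18 over the tested NF-kB genes, 0.16 over the AP-1 genes, 0.08 over the decay genes and 0.61 over the STAT genes, against 0.01 over all genes tested. In neutrophil-like cells, where 0 of all 448 genes passed, 35 of these genes were tested, and Stat3 and Mcl1 had log2 fold changes of -0.05 and -0.0035.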

How the data were processed

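Single cells were sequenced by CEL-Seq2, per the labels' protocols. The tools are bcl2fastq 2.17.1.14 and the aligner BWA 0.6.2-r126, per the submitters' processing notes (genome build: not given in the sources used here). The authors deposited tables of 192 barcodes per library whose values are estimated transcript counts: each value above 0 (1419098 in all) equals a whole number of identifiers corrected for collisions among 4096 possible ones, within a tolerance of 1e-06. The same 192 well barcodes recur in every table and do not mark shared cells. Because the values are no raw counts, no count model was used, although one had been foreseen where the files held raw counts.

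Barcodes with at least 500 transcripts were kept, without a doublet caller; leaving out cells above 4 times their library's median was an alternative. Cells were clustered (leidenalg 0.10.2, resolution 1) on 170 marker and state genes without the 5 members. A cluster was named when at least 3 markers of a type were raised 1.5 times and more than of any other type, no other type had more markers among its 10 leading genes, and its median depth was not under 0.33 of its libraries' with none of the type's markers among those 10; this is the second of 2 naming rules looked at, settled before the members' values by cluster were seen. Shares were compared on 1 draw of 500 transcripts per cell by permuting group labels within title sets (100000 draws, or all where a group had under 10 libraries); on simulated data with no difference this test was slightly liberal. Summed transcripts were scaled by trimmed means and tested with limma 3.58.1 (voom, R 4.3.3; genes with 10 transcripts at the median library size in at least 10 libraries), and CPM is on that scale. Cells with and without a transcript were summed per library (at least 5 cells of each, 4 libraries) and tested with library as a term, the gene itself left out. All p-values were Benjamini-Hochberg adjusted over all genes tested. Alternatives covered thinning, cell minimum, scaling, filter, title set, cell class and each library left out. The 5 members, the pathway and marker lists and the alternatives were chosen with earlier results of these data known. Named pathway genes are those that passed, or else the 3 most abundant tested of a list; named cell comparisons take up to 8 called genes per direction. A gene that the rule on nearest genes would name is not reported here. Promoters and motifs were read from RefSeq tables.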

Additional observations from a re-analysis of the deposited data

Results flagged for a closer look

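The share of cells with Hbegf was 4.762% in control replicate 4, which lay far above the next control library, at 2.22%, relative to the range of the group. That library held 19 Hbegf transcripts, and the cell with the most Hbegf anywhere, 10 transcripts, was an epithelial-like cell in it. The result rests on a handful of cells, and 10 sets of library values were examined in this way, of which chance would give about 1 in 20.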

How the results depend on the processing

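The share of cells with Tnf was higher in aGVHD in all 37 alternatives, by 2.36 to 16.8 percentage points, and passed the adjusted threshold in 0 of them (unadjusted permutation p 0.00549 to 0.433). Leaving out 1 library at a time gave 5.84 to 8.56 points for Tnf, 0.00937 to 1.68 for Osm, -0.633 to 2.40 for Csf1 and -0.874 to 0.136 for Il23a, and -0.0877 to 0.504 for Hbegf. For the other transcripts the sign of a difference within the spread changed. For Il23a it was 0.301 points without thinning, 3.45 at 1000 transcripts, 0.216 at 250 named transcripts, 0.274 with a minimum of 250, 2.36 in clusters other than neutrophil-like and 0, and 1.11 when averaged over all possible draws. For Osm it was -1.27 in libraries with at least 20 cells and -0.771 in the other clusters. For Csf1 it was -0.332 in libraries with at least 20 cells, -0.785 with cluster 0 added to the neutrophil-like cells and -2.08 in the other clusters. The share test called 2 genes among those in at least 50 cells. The cause of these changes was not tested.

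The limma count of 152 genes became 9 with total scaling, 7282 of 22839 without the filter, 42 in the dated set, 6 in the G1 set, 16 in libraries with at least 20 cells, and 70 to 193 with 1 library left out; Tnf had a log2 fold change of 0.93 to 1.36 in the last of these. It lost its call also with libraries of at least 20 cells (1.17, adjusted p = 0.116), and kept it without the filter (1.501), with limma-trend and with sizes from named genes. Left-out ranges were 0.14 to 0.49 for Osm, 0.38 to 0.66 for Csf1 and 0.59 to 0.99 for Il23a. In neutrophil-like cells the count of 0 became 4 without the filter, 1 at resolution 2 and 0 to 2 with 1 library left out. There the range was 0.73 to 1.504 for Tnf and -0.35 to -0.08 for Csf1, whose log2 fold change was 0.0030 with total scaling and 0.083 without the filter. The G1 set was not run there, with 1 control library.

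The count for Tnf-positive cells was 28 at 1000 transcripts, 61 over all kept cells, 22 with cluster 0, 5 at 250 named transcripts, and 10 to 19 with 1 library left out. For Osm it was 2, 23 and 0, and 7 with at least 3 cells of each status. For Csf1 it was 13 at 1000, 57 over all kept cells, 5 at 250 named, and 4 to 8. The percentage of positive cells with 2 or more transcripts was 22.7% as reported and 49.1% without thinning.

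Same-numbered libraries of the dated set correlated at 0.457, 0.0851, 0.335, 0.292, 0.217 and 0.110 (deviations from group means), with number 2 under the 0.1 required of every pair, so the numbers were not taken as pairs. The highest correlation with another number was 0.380, 0.0957, 0.268, 0.4055, 0.2705 and 0.116, so the same number gave the higher value for numbers 1 and 3 only. With the replicate number as a block, 14 genes passed, Tnf had a log2 fold change of 1.144 (limma adjusted p = 0.111), and the share difference was 6.36 points for Tnf and -1.11 for Csf1. Control libraries with 11 to 19 kept cells give shares in steps of several points, which limits the precision of every comparison.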

Other observations

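Barcodes of the plate positions that held almost no kept cells still carried some of these transcripts. Over those positions Tnf had 35 transcripts in aGVHD libraries and 20 in control libraries, or 282 and 302 CPM of named genes. Csf1 had 29 and 11, Osm 6 and 1, Il23a 3 and 0, and Hbegf 3 and 1. Osm (48.4 CPM in aGVHD, 15.1 in control), Csf1 (234 and 166), Il23a (24.2 and 0) and Hbegf (24.2 and 15.1) had the higher value in aGVHD, with exact binomial p-values over the 5 of 0.408 to 1 that cover counting error only. Control replicate 8 held 10 of the 20 control Tnf transcripts, and without it the control level of Tnf was 184 CPM. Without aGVHD replicate 9, 10 or 12 the aGVHD level of Tnf was 303.7, 311.6 or 319 CPM, above the 302.4 of control. Without aGVHD replicate 3 the aGVHD level of Hbegf was 9.36 CPM, below control.

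Over all kept cells, not only the neutrophil-like ones, the Tnf-positive cells of 14 libraries differed from the negative ones in 61 of 160 genes tested, 20 of them higher. With 250 transcripts of named genes per cell in place of 500 of all genes, 5 of 36 genes passed in neutrophil-like cells. Nfkbia and Ccrl2 were higher and S100a9, S100a8 and Actb lower in the Tnf-positive cells.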
